A study of Mus musculus with 8 samples.

Results

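The 10 genes described here write, copy, read and erase cytosine methylation in the mouse: the DNA methyltransferase genes Dnmt1, Dnmt3a, Dnmt3b and Dnmt3l, the dioxygenase genes Tet1, Tet2 and Tet3, the glycosylase gene Tdg, and Uhrf1 and Uhrf2. Their CpGs were chosen by position alone, as those in the body of each gene (mm10, GENCODE vM21) or in the 1500 bases before its start that had at least 5 reads in every mouse after both strands were summed. There were 774 such CpGs, out of 897285 CpGs that passed the same coverage minimum across the genome. Methylation was measured by reduced representation bisulfite sequencing (RRBS), in which DNA is cut by MspI at CCGG and bisulfite turns unmethylated cytosine into uracil, so that each CpG gets a share of reads that kept the cytosine. The DNA came from hepatocytes isolated by liver perfusion from 8 female C57Bl6/J mice, 4 of them mid-aged at 40 weeks and 4 young at 10 weeks, with 1 library per mouse. Per the study's methods, both groups ate the control diet. Values are percent methylated reads, and a difference is the mid-aged mean minus the young mean in percentage points.

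Dnmt1 restores the methyl group on the new strand after DNA replication, and Uhrf1 brings it to hemimethylated CpGs, while Uhrf2 is a relative of Uhrf1. Dnmt3a and Dnmt3b place methyl groups on unmethylated DNA, with Dnmt3l as a cofactor that lacks catalytic activity of its own and is best known from germ cells. Tet1, Tet2 and Tet3 oxidize 5-methylcytosine to 5-hydroxymethylcytosine and further, and Tdg cuts out the most oxidized bases so that base excision repair can put back an unmethylated cytosine. Bisulfite sequencing reads 5-methylcytosine and 5-hydroxymethylcytosine alike.

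The libraries held 46321447 to 118395064 reads over CpGs, with all 4 mid-aged libraries deeper than all 4 young ones. Over the 774 CpGs the median was 43, 76, 49 and 74 reads in mid-aged mice 1 to 4, and 25, 40, 33.5 and 42 reads in young mice 1 to 4. Young mouse 1 had the lowest coverage at 378 of the 774 CpGs and mid-aged mouse 1 at 215. The check of the label against methylation near the starts of marker genes was thin. Of 30 markers of liver cell types only 8 had at least 3 tested CpGs there, and of the 10 hepatocyte markers only the fibrinogen gene Fgb (18.9% in mid-aged mice and 14.7% in young mice). Of the others, the macrophage gene Adgre1 was high (85.2% and 89.2%), but the endothelial gene Kdr (2.65% and 2.66%) and the cholangiocyte gene Sox9 (2.07% and 1.16%) were lower than Fgb, and 4 stellate cell genes had medians of 14.3% and 13.0%. These levels do not tell the cell types apart. In a bulk sample, a shift in the mix of cells and a shift within the hepatocytes cannot be told apart.

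RRBS reached 774 of the 8499 CpGs of the 10 windows (9.11%) at the coverage minimum. The share of a window, which is the gene record given here plus the bases before its start, ran from 5.31% in Tet2 (42 CpGs on chr3:133463679-133545139) to 17.8% in Uhrf1 (72 CpGs on chr17:56303321-56323486). The others were Dnmt1 with 66 CpGs (chr9:20907209-20959888), Dnmt3a with 105 (chr12:3806007-3914443), Dnmt3b with 47 (chr2:153649450-153687730) and Dnmt3l with 33 (chr10:78041947-78063622). Tet1 had 108 (chr10:62804570-62908996), Tet3 154 (chr6:83362373-83459084), Tdg 47 (chr10:82629828-82650799) and Uhrf2 100 (chr19:30030513-30093722). By the main transcript of each gene, 447 of the CpGs lay in introns, 128 in coding exons, 56 in 5′ UTR exons, 15 in 3′ UTR exons and 128 outside that transcript. Tdg, Dnmt3a and Dnmt3l have near-copies in the genome, so the levels of their coding exons (6, 6 and 5 CpGs) are uncertain. Copies of the other members, Dnmt3b among them, were not looked for, so their levels may be affected too. Overlapping gene records held 33 of the Dnmt3b, 14 of the Dnmt3l and 11 of the Tet3 CpGs.

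The stretches of DNA on which the descriptions turn are printed here from the mm10 reference (GRCm38.p6), plus strand, 5′ to 3′, with the tested CpGs in capitals. The first is in intron 6 of Dnmt3a before an internal start site, and the second in intron 6 of Tet1. They hold the member CpGs with the largest differences among those with at least 10 reads in every mouse. The Uhrf2 stretch holds the step from partly methylated to unmethylated DNA upstream of the gene. The Tdg stretch lies just before a start and was unmethylated. The Dnmt3l stretch lies after a start, in intron 1, and was methylated at the only 1 CpG in it.
Dnmt3a chr12:3891218-3891292: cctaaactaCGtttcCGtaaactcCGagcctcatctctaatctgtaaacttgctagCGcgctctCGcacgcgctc
Tet1 chr10:62824636-62824697: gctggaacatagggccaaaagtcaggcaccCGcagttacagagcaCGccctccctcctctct
Uhrf2 chr19:30029908-30030064: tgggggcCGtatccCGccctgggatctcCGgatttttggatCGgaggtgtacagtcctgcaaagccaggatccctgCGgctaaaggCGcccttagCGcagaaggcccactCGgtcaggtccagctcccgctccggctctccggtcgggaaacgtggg
Tdg chr10:82629705-82629827: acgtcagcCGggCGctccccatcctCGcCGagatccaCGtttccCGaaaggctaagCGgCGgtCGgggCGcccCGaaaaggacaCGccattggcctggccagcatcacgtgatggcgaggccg
Dnmt3l chr10:78042420-78042516: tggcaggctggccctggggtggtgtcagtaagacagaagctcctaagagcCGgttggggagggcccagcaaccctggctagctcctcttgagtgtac

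The 774 CpGs fell into separate levels. Averaged over the 8 mice, 416 lay under 20%, 303 over 80% and only 55 between. The level went with the number of CpGs around it, a split that was set up after the values were seen. Of the 429 CpGs with 10 or more CpGs within 100 bases (itself included), 357 (83.2%) were under 20%, as were 12 of the 12 tested CpGs printed for Tdg. Of the 132 CpGs with at most 4, 106 (80.3%) were over 80%, as was the lone CpG printed for Dnmt3l at 84.2%. Near an annotated transcription start (within 250 bases), 192 of 218 CpGs (88.1%) were under 20%, and by their means 11 of the 17 start sites with tested CpGs were. Coding exons were the opposite, with 109 of 128 CpGs (85.2%) over 80%, and all 15 CpGs of 3′ UTR exons were over 80%. Joined across gaps of up to 300 bases, the CpGs made 95 clusters, of which 20 were low, 66 high and 9 in between, and 12 of the 20 low clusters lay at a start site.

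**Figure D1:**
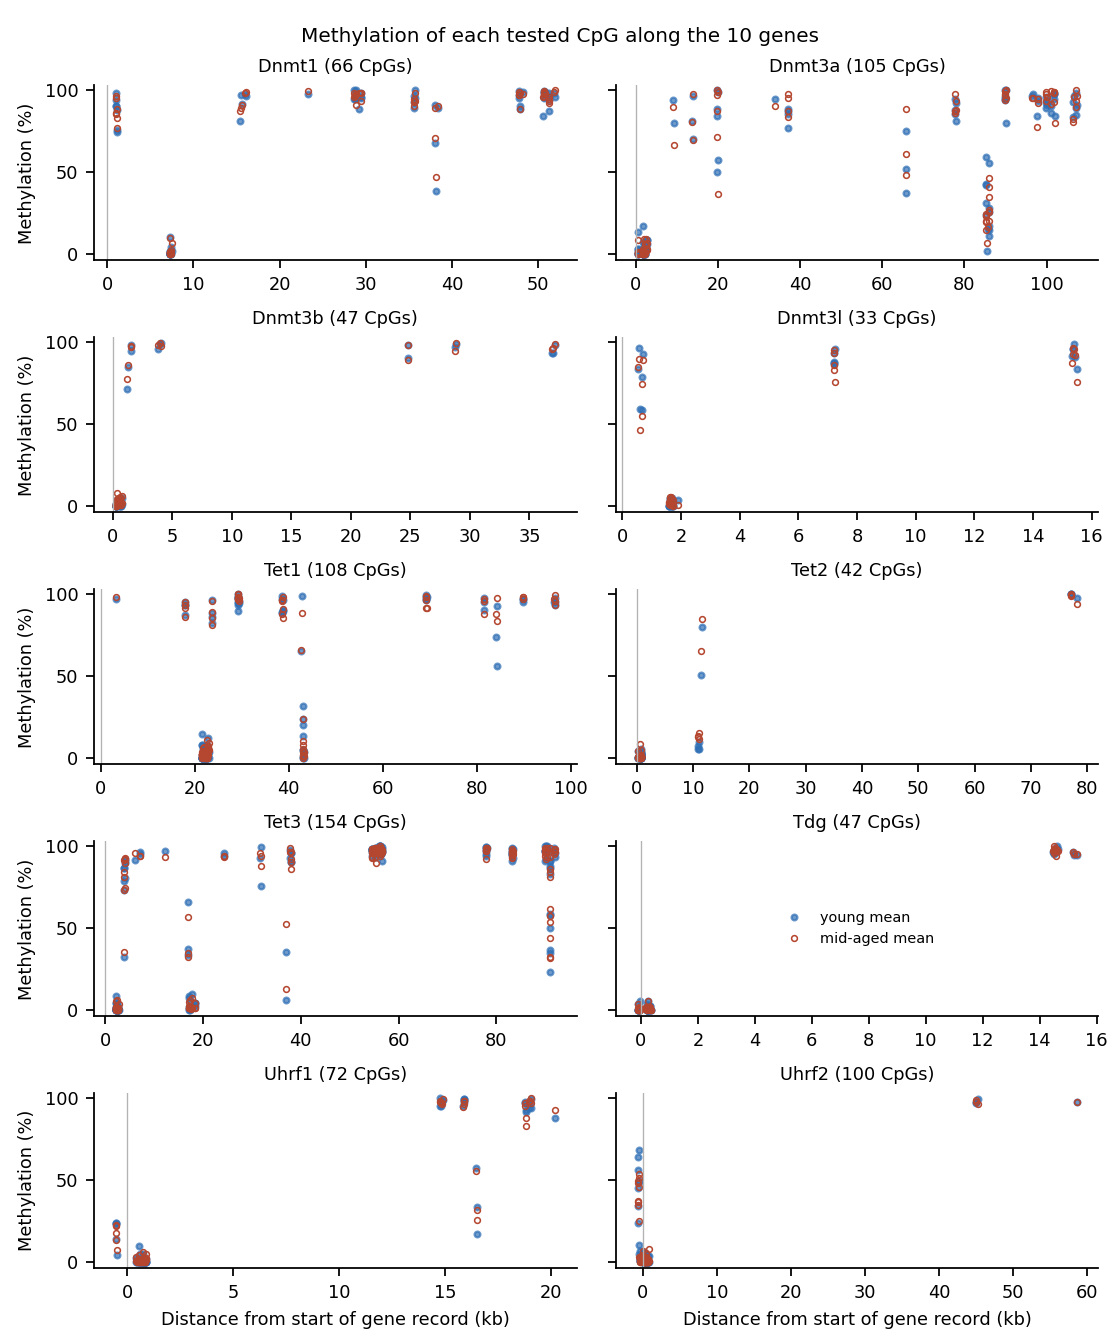
Mean methylation (y axis, %) of every tested CpG against its distance from the start of the gene record in the direction of transcription (x axis, kb), with filled blue points for the mean of the 4 young mice and open red points for the mean of the 4 mid-aged mice. Most points sit near 0% at start sites or near 100% along the gene, and 55 of the 774 CpGs lie between 20% and 80% on average over the 8 mice, such as those near 85 kb in Dnmt3a.

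No CpG of the 10 genes was called different between mid-aged and young mice. A call needed an adjusted p under 0.05 in a quasi-binomial model (Benjamini-Hochberg over all 897285 CpGs, dispersion moderated with limma), a difference of at least 5 points, and a variance of the methylated fraction under 0.05 in both groups. Across the genome 1466 CpGs (0.163%) met it, and at that rate 1.26 of 774 CpGs would be called. The smallest adjusted p of a member CpG was 0.113. An unadjusted p under 0.05 was found for 65 member CpGs (8.4%), 28 of them higher and 37 lower in mid-aged mice. Over all CpGs it was found for 9.09%, 46263 of them higher and 35270 lower. The values of the groups did not overlap at 23 member CpGs (2.97%), against 3.57% of all CpGs. Both shares lay near the background. With limma on M values, also no member CpG was called, the smallest adjusted p was 0.0549, and the share called over all CpGs was 0.00446% (40 CpGs), so 0 calls says nothing about the members. By that test 145 member CpGs (18.7%, against 12.9% of all CpGs) had an unadjusted p under 0.05. The median difference was 0.124 points over the members and 0.212 over all CpGs, and 665 member CpGs (85.9%) stayed within 5 points, against 79.6% of all CpGs.

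By role, the methyltransferase genes had an unadjusted p under 0.05 at 30 of 251 CpGs (12.0%, 19 higher and 11 lower). The Tet genes and Tdg had it at 28 of 351 (7.98%, 9 higher and 19 lower) and the Uhrf genes at 7 of 172 (4.07%, all 7 lower). Over all CpGs, 46263 were higher and 35270 lower at that p. CpGs of the same cluster are neighbors and not independent, and the splits by direction were not tested. Dnmt3a had the most for its size, 16 of 105 CpGs (15.2%), 8 in each direction. Partly methylated CpGs varied most between mice of a group. The median SD was 7.2 points in mid-aged mice and 10.2 in young mice for the 55 CpGs between 20% and 80%, against 0.975 and 0.775 for CpGs under 20%. Over the whole genome, the same classes had medians of 7.70 and 11 and of 1.15 and 1.37. Of the 55 partly methylated member CpGs, 18 differed by over 10 points and 11 (20%) had an unadjusted p under 0.05. Over all 123318 CpGs of the genome in that class, 28.5% differed by over 10 points and 14.2% had such a p.

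**Figure D2:**
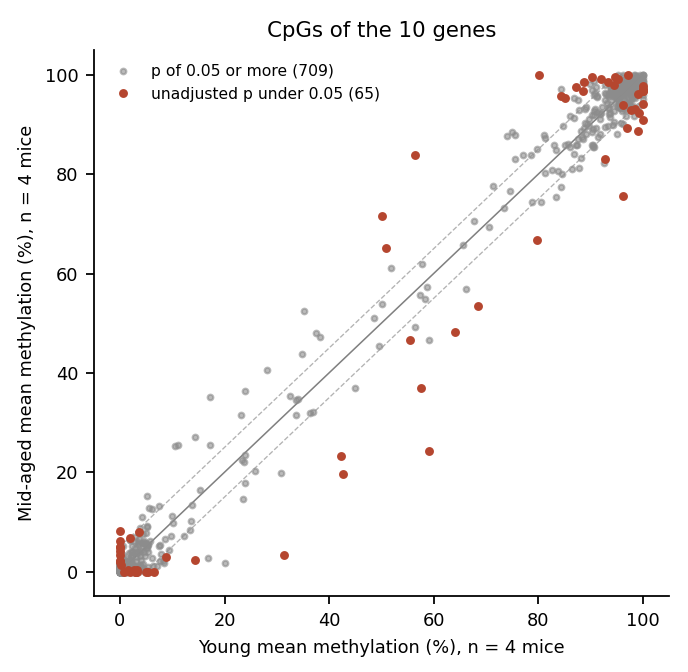
Mean methylation of each of the 774 CpGs in the 4 mid-aged mice (y axis, %) against its mean in the 4 young mice (x axis, %), 1 point per CpG, red for the 65 with an unadjusted p under 0.05 and grey for the rest, with dashed lines 5 points from the diagonal. Points crowd both ends of the diagonal, 665 of the 774 lie within the dashed lines, and the farthest point is the Dnmt3a CpG at 59.1% in young and 24.4% in mid-aged mice.

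Averaged over all tested CpGs of a gene, the differences were small. Dnmt1 had 71.8, 72.4, 72.5 and 72.5% in the mid-aged and 71.6, 72.1, 71.3 and 71.5% in the young mice, a difference of 0.711 points (95% interval -0.654 to 2.08). Dnmt3b, at 28.9, 30.0, 29.7 and 29.4% against 28.7, 28.2, 29.3 and 28.3%, differed by 0.861 points (-0.0752 to 1.80). In both genes the groups overlapped by 1 mouse, and a two-sided exact permutation test gave p = 0.0571 for each, where the smallest p that 4 against 4 mice allow is 0.0286. Dnmt3l was the gene with the widest gap, 43.9% ± 1.40 against 45.5% ± 1.25 (SD, n = 4 each), or -1.60 points (-3.69 to 0.487).

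The intervals of the other genes held 0 as well. Dnmt3a had 49.6% ± 0.637 against 49.3% ± 1.1, with an interval of -1.33 to 1.90 points for the difference. Tet1 had 42.4% ± 0.455 against 42.3% ± 1.68 (-1.84 to 2.05), Tet2 14.9% ± 0.844 against 14.2% ± 1.2 (-0.865 to 2.17) and Tet3 62.1% ± 0.331 against 62.2% ± 0.685 (-1.45 to 1.32). The demethylation partner Tdg was the tightest, at 31.6% in both groups with all 8 mice between 31.3% and 31.8% (-0.718 to 0.748). Uhrf1 had 30.0% ± 0.581 against 29.9% ± 0.573 (-0.989 to 1.1), and Uhrf2 8.51% ± 0.283 against 8.80% ± 1.04 (-1.45 to 0.875). With limma over 24433 genes, 0 of the 10 whole-gene means passed an adjusted p of 0.05 and 0 an unadjusted one, against 0.52% and 11.4% of all genes. The median difference over all those genes was 0.213 points.

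**Figure D3:**
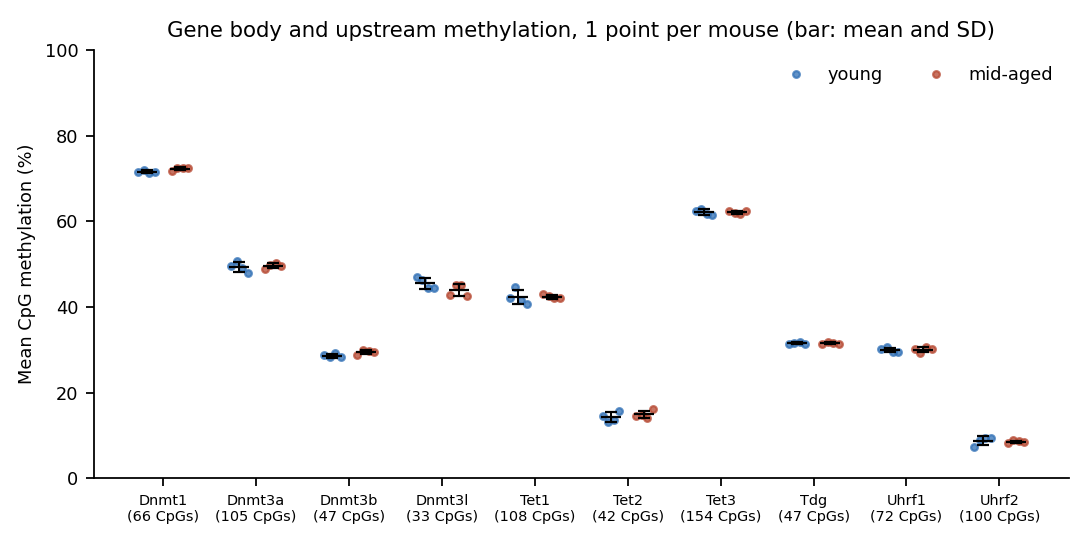
Mean methylation over all tested CpGs of each gene (y axis, %), 1 point per mouse, with bars for the mean and SD of the 4 mid-aged and the 4 young mice. The genes differ widely in level, from Uhrf2 near 8.5% to Dnmt1 near 72%, and within each gene the groups lie within 1.60 points of each other.

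The maintenance gene Dnmt1 has 2 groups of annotated start sites. Around the one of its main transcript (chr9:20952605-20952979), 15 CpGs of intron 1 were unmethylated, at 1.87, 1.56, 2.12 and 1.25% in mid-aged mice and 1.70, 2.02, 0.541 and 1.07% in young mice. The groups overlapped. No CpG was tested within 250 bases of the upstream start. Of the other CpGs of Dnmt1, 47 were over 80% and 4 between 20% and 80%, and the CpG of at least 10 reads with the largest difference, chr9:20909315 in intron 35, was among the 47. It had 100, 91.9, 97.1 and 94.1% in mid-aged mice and 91.3, 79.7, 83.5 and 82.7% in young mice, all mid-aged values above all young ones, but with an adjusted p of 0.278.

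Uhrf1, which brings Dnmt1 to newly copied DNA, was unmethylated along 44 CpGs of intron 1 (chr17:56303726-56304197), at 0.963% ± 0.266 in mid-aged mice and 0.745% ± 0.182 in young mice (SD, n = 4 each). The 18 CpGs within 250 bases of its second start site had 1.09% ± 0.616 and 0.270% ± 0.395. Farther in, 3 partly methylated CpGs in intron 13 included the one with the largest difference among CpGs of at least 10 reads, chr17:56319831, with 28.3, 21.7, 20.2 and 31.5% against 26.1, 18, 10.2 and 14.7%. These ranges overlapped (difference 8.16 points, adjusted p = 0.578).

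In Uhrf2, a step in methylation lay about 0.5 kb before the start. The 9 CpGs at positions -679 to -510 relative to the start averaged 41.8, 46.1, 43.5 and 37.8% in mid-aged mice and 26.5, 46.5, 52.6 and 52.6% in young mice. The next 72 CpGs, at positions -495 to 495, averaged 0.879% ± 0.243 and 1.06% ± 0.174 (SD, n = 4 each). The change took place between neighbors 15 bases apart, 49.9% at chr19:30030003 and 3.95% at chr19:30030018 over the 8 mice, and both are capitals in the printed stretch. The lowest mouse was at 14.3% at the first of these CpGs (young mouse 1) and the highest at 9.09% at the next, so the step was in the same place in both groups. Over the 9 CpGs on the methylated side of the step, young mouse 1, with few reads, was lowest. The young mice spread more there, with an SD of 12.4 against 3.47 points. The CpG there with the largest difference, chr19:30029922, had 52.9, 51.5, 48.1 and 40.7% against 50, 78.7, 66.7 and 61.4%, where only young mouse 1 fell within the mid-aged range (adjusted p = 0.335). The last 4 CpGs, far inside the gene, were at 97.6% and 98.0%.

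Dnmt3a, the de novo enzyme with 9 annotated start sites, was unmethylated at its 5′ end and partly methylated at an internal start (chr12:3891728-3891744), from which the shorter transcripts Dnmt3a-203 and Dnmt3a-205 begin. At the most upstream start, 8 CpGs had 1.48% ± 0.750 in mid-aged mice and 2.72% ± 3.04 in young mice (SD, n = 4 each), and no CpG was tested at the start of the main transcript. The 8 CpGs within 250 bases of the internal start had 30.7, 24.7, 26.0 and 27.6% in mid-aged mice and 20.7, 25.5, 16.4 and 22.2% in young mice. The next 5 CpGs upstream, printed above and 501 to 446 bases before that start, went the other way. Their mean was 13.3, 22.4, 25.8 and 19.9% in mid-aged mice and 39.3, 44.9, 43.7 and 30.9% in young mice, so that every young mouse was above every mid-aged one. The difference was -19.3 points in these 5 CpGs and 6.05 points in the other 8. The stretch was singled out after its values were seen and has no test of its own.

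Within that stretch, chr12:3891282 had the largest difference of any member CpG. It had 20, 26.7, 28.6 and 22.2% in mid-aged mice and 50, 68.8, 67.6 and 50% in young mice, or -34.7 points, from 5 to 27 and 8 to 37 reads, and its adjusted p was 0.143. In mid-aged mouse 1, 1 of 5 reads was methylated, with a 95% Wilson interval of 3.62 to 62.4%; such intervals cover counting error only. Its neighbor chr12:3891274, the Dnmt3a CpG of at least 10 reads with the largest difference, had 20, 16.1, 23.4 and 19.2% against 46.2, 43.1, 52.5 and 28.6% (-22.9 points, adjusted p = 0.177). The groups were also apart at chr12:3891233 (-19.2 points, adjusted p = 0.329) and chr12:3891227 (-10.9 points, adjusted p = 0.560), and overlapped at chr12:3891242 (-8.98 points, adjusted p = 0.706). None of the 5 was called.

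**Figure D4:**
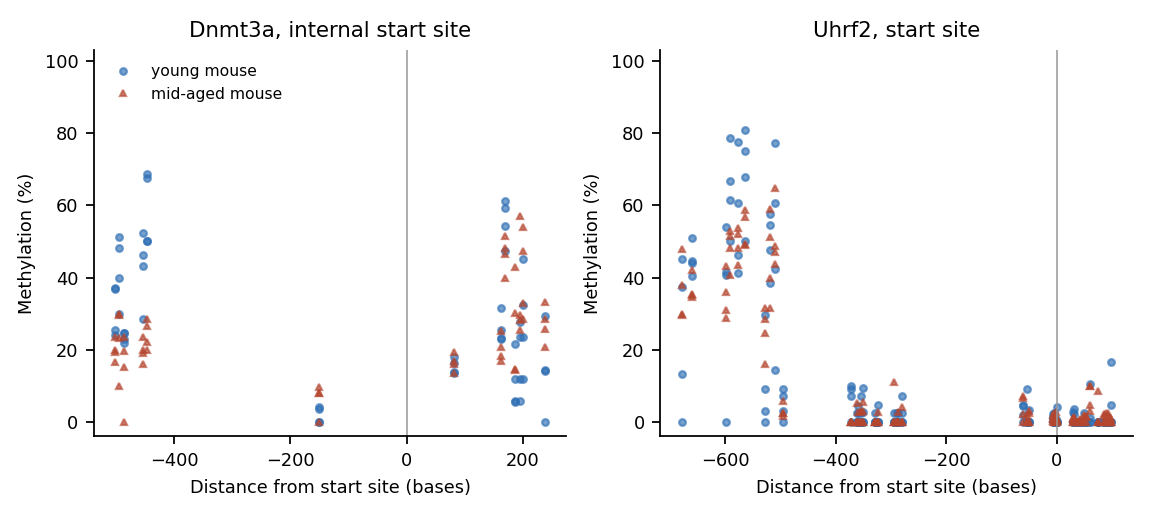
Methylation (y axis, %) of each CpG in each mouse against the distance from the internal start site of Dnmt3a and from the start site of Uhrf2 (x axis, bases, negative before the start), with blue circles for the 4 young and red triangles for the 4 mid-aged mice. About 450 to 500 bases before the Dnmt3a site young mice sit above mid-aged mice (means of 39.7% and 20.4% over 5 CpGs). In Uhrf2 the means of both groups drop from partly methylated to near 0% between the same neighbors. The young mean is also low (10.4%) at the CpG 529 bases before the start.

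Dnmt3b, the other de novo enzyme, was the only 1 of 5 members with enough tested CpGs at the start whose groups were apart there, on a small scale. The 24 CpGs from 1500 bases before to 500 after its start had 1.53, 1.19, 1.47 and 1.31% in mid-aged mice and 0.384, 0.940, 0.949 and 1.04% in young mice. Each mid-aged value was above each young one, and all of them were close to 0%. The difference was 0.546 points (95% interval 0.0727 to 1.02), with p = 0.0286 in the two-sided exact permutation test, the smallest possible, and an adjusted p of 0.494 with limma over 17684 start windows. Young mouse 1 was far below the others of its group here, and without 1 mouse at a time the difference stayed between 0.398 and 0.615 points. The groups were also apart over the 33 CpGs of the unmethylated cluster (chr2:153649702-153650195), at 1.80% ± 0.303 against 0.960% ± 0.194 (SD, n = 4 each). These 33 include the 24 of the start window, so this is no separate evidence. Of the 95 clusters of the members, 5 had groups that did not overlap. Clusters were not made over the rest of the genome. The 5 therefore have no background share beside them and are not read as a result about the members. Over all 17684 start windows the median difference was also positive, at 0.152 points. For single CpGs of the genome under 20%, the median difference was 0.225 points. The 0.841 points between the means of this cluster is a mean over 33 CpGs, so it is not the same measure as that median. The CpG with the largest difference among those of at least 10 reads, chr2:153650003, had 0, 7.84, 0 and 11.8% in mid-aged mice and 0% in all 4 young mice, where 11 to 40 reads at 0 leave Wilson upper limits of 25.9% to 8.76%. Its adjusted p was 0.460.

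Of 5 members with at least 3 tested CpGs in that start window, Dnmt3b was the only one with an unadjusted p under 0.05 in limma, against 8.96% of all genes, and 0 of the 5 passed an adjusted p of 0.05, against 0.0565% of all genes. Tet2 had 1.1% ± 0.677 against 0.883% ± 0.949 over 5 CpGs, and Tdg 0.790% ± 0.125 against 0.817% ± 0.267 over 32. Uhrf1 had 7.49% ± 2.58 against 7.71% ± 1.99 over 12, of which the 5 upstream CpGs had group means of 4.33% to 23.8%. Uhrf2 had 5.48% ± 0.410 against 5.89% ± 1.24 over 81, which include the methylated side of its step. The rest of the gene was at 58.8% and 57.6% in Dnmt3b, and 97.2% and 97.1% in Tdg. It was at 34.5% and 34.4% in Uhrf1, and 21.4% and 21.2% in Uhrf2. In Tet2 the rest was at 16.8% and 16%, but 27 of its 37 CpGs lay at the start of the main transcript. In these 5 members and in the 5 without such a start window, 0 of the 10 gene bodies had an adjusted or an unadjusted p under 0.05 in limma, against 0.508% and 11.6% of all genes. In the 5 without such a start window, the body held the same CpGs as the whole gene, so their body values repeat the whole-gene values.

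Of the 7 members with tested CpGs within 250 bases of the start of their main transcript, the cofactor gene Dnmt3l was the only one methylated there. The 2 tested CpGs within 250 bases of it had a mean of 79.4, 87.4, 92.4 and 90.7% in mid-aged mice and 92.5, 88.5, 95 and 83.5% in young mice, with overlap. A low stretch of 16 CpGs lay farther in intron 1 (chr10:78043541-78043844), at 2.15% and 1.5%, and 14 CpGs of Dnmt3l are shared with the record of Aire. The CpG with the largest difference at 10 or more reads, chr10:78042564, had 38.9, 46.1, 52.3 and 49.4% against 58.1, 67.4, 53.3 and 58.0%, with the groups just apart (-12.6 points, adjusted p = 0.568).

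Among the dioxygenase genes, Tet1 was unmethylated in intron 1, where the transcripts Tet1-207 and Tet1-210 start, and had 45 of its 108 CpGs over 80%. The 15 CpGs within 250 bases of that start had 1.5, 2.18, 2.24 and 2.23% in mid-aged mice and 5.15, 1.5, 3.39 and 1.19% in young mice. At another start further on in the gene (chr10:62880014), 4 CpGs were at 98.4% in both groups. The printed CpG of Tet1, chr10:62824666 in intron 6, had 96.6, 86.7, 76.7 and 75.8% in mid-aged mice and 54.2, 55.6, 52.2 and 63.6% in young mice, or 27.5 points, from 18 to 43 reads. All mid-aged mice were above all young mice, yet the adjusted p was 0.264. The cluster of 3 CpGs around it averaged 89.9% ± 2.54 against 74.4% ± 7.24 (SD, n = 4 each). A second low stretch in intron 2 (chr10:62865697-62866261, 12 CpGs) had 17.7% ± 2.97 and 22.3% ± 9.77, and its CpG chr10:62865854 had 0, 4.17, 9.09 and 0% against 15.4, 80, 14.3 and 16%. The groups were apart there, but the 80% of young mouse 2 rests on 5 reads (adjusted p = 0.518).

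Over its tested CpGs, Tet2, the family member without the CXXC domain, was the least methylated of the 3 dioxygenase genes, with 36 of 42 under 20%. Of these 42 CpGs, 27 lay at the start of the main transcript and 5 at the start further upstream. The level therefore describes mainly the start sites and not the gene as a whole. The 4 tested CpGs of coding exons had group means of 93.8% to 100%. At the start of its main transcript, 27 CpGs had 1.06, 0.908, 1.05 and 0.728% in mid-aged mice and 1.68, 1.10, 0.820 and 1.95% in young mice. In intron 1, chr3:133533720 varied within both groups, with 46.8, 75.8, 69.1 and 68.8% against 75.9, 34.0, 53.3 and 40.4%, each from 53 or more reads. There, mid-aged mouse 1 and young mouse 1 went against their groups (adjusted p = 0.523).

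Tet3 had the most tested CpGs, 57 of them in coding exons. Its main start was unmethylated over 12 CpGs, at 0.866% ± 0.725 and 0.408% ± 0.471 (SD, n = 4 each), and so was a start in intron 2 over 8 CpGs, at 1.78% ± 0.786 and 2.38% ± 1.56. Of its 12 CpGs with an unadjusted p under 0.05, 10 were lower in mid-aged mice, against 35270 of 81533 over all CpGs. The largest difference at 10 or more reads was at chr6:83422032 in intron 3, with 50, 50, 63.2 and 47.1% against 30.8, 25.0, 41.7 and 43.6%. The groups were apart by less than 4 points, and the adjusted p was 0.584. A run of 11 CpGs near the 3′ end (chr6:83368007-83368133) was partly methylated, at 65.8% and 63.7%.

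Tdg, the glycosylase gene, had the plainest pattern. All 32 CpGs of its start were under 20% and all 15 CpGs farther in were over 80%, including the 12 CpGs within 250 bases of an internal start (97.6% ± 0.453 against 97.5% ± 0.905, SD, n = 4 each). The smallest p of all members was at chr10:82629778, 50 bases before the start. It had 0% in all 4 mid-aged mice, from 75 to 133 reads, and 0, 4.88, 12.9 and 3.70% in young mice, from 5, 41, 31 and 27 reads (-5.37 points, adjusted p = 0.113). In young mice this was 0 of 5, 2 of 41, 4 of 31 and 1 of 27 reads. At chr10:82630049 the difference of -3.68 points came from 2 of 13 reads in young mouse 1 alone, and without that mouse it was 0.162 points.

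The average of CpG percentages and the average over reads gave different pictures of these genes. Of the reads over the 774 CpGs, those on CpGs under 20% made up 75.7, 59.9, 53.1 and 64.9% in mid-aged mice and 29.9, 55.8, 43.7 and 40.7% in young mice. Mid-aged mouse 3 lay below young mouse 2, and the other mid-aged mice were above all young mice. Over all tested CpGs of the genome the same share was 55.8 to 70.2% in mid-aged mice and 37.1 to 62.5% in young mice. When reads were pooled over the CpGs of a gene in place of averaging its CpGs, the difference of Dnmt3a moved from 0.285 to -23.5 points, that of Tdg from 0.0149 to -21.7 and that of Tet1 from 0.106 to -19.8, none past an adjusted p of 0.05 with limma (0.170, 0.241 and 0.176).

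**Figure D5:**
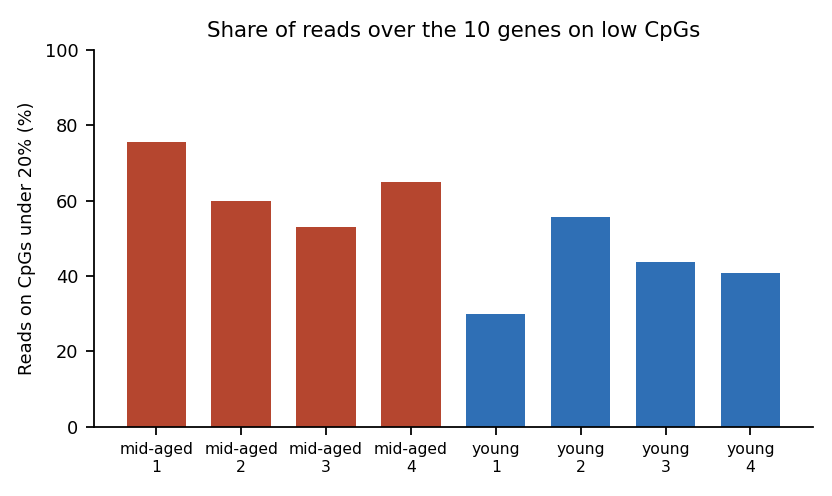
Share of the reads over the 774 CpGs that lay on CpGs with a mean under 20% (y axis, %), 1 bar per mouse (x axis), mid-aged in red and young in blue. The share runs from 29.9% in young mouse 1 to 75.7% in mid-aged mouse 1, and mid-aged mouse 3 (53.1%) lies below young mouse 2 (55.8%).

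Genes that work with the 10 members were described in the same way. Of 44 such genes, 42 had tested CpGs, 1928 in all, of which 1 was called (0.0519%, against 0.163% of all CpGs) and 135 (7.0%) had an unadjusted p under 0.05. The methyl-CpG readers had 0 calls by the quasi-binomial model and 25 of 345 CpGs (7.25%) under that p, and the targeting and maintenance partners 0 calls and 33 of 660 (5.0%). Genes of the methionine and S-adenosylmethionine cycle, which supplies the methyl group, had 0 calls and 30 of 347 (8.65%). Among the base excision and TET partners 47 of 576 CpGs (8.16%) were under that p. The called one was in Cxxc5, a CXXC-domain protein known to bind Tet2, 16096 bases from its start, with 41.2, 39.8, 39.2 and 43.2% in mid-aged mice and 62.9, 65.9, 64.5 and 57.6% in young mice (-21.9 points, adjusted p = 0.00652 in the quasi-binomial model). Every library had at least 34 reads there. The call was lost without mid-aged mouse 2 (adjusted p = 0.0748) or mid-aged mouse 3 (adjusted p = 0.0650), with limma on M values (adjusted p = 0.315) and with the CpG's own dispersion (adjusted p = 0.812), and it held with the replicate block (adjusted p = 0.000404).

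By the root mean square difference of start and body percentages over the 8 mice (16 values), among 11562 genes with both windows, Prdm11 was nearest to Dnmt3b (0.750 points), Zbtb1 to Tet2 (0.768), Ddx41 to Tdg (0.388), Cntnap1 to Uhrf1 (1.60) and Nipa1 to Uhrf2 (0.842). The other 5 members had no start window with 3 tested CpGs and were not compared in this way.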

How the data were processed

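RRBS of 8 hepatocyte libraries, 4 mid-aged and 4 young, was used. As deposited by the authors, each file lists the covered strands of CpGs on mm10, with a methylation level in percent and a count of covering reads, from the DEEP pipeline without normalization. The submitters' processing notes list BWA 0.6.2 with Trim Galore 0.4.2, SAMtools 1.3, Picard 1.115 and FastQC. The caller was not given in the sources used here. Strands were summed and CpGs with at least 5 reads in all 8 mice were kept. RRBS reads carry no molecular identifiers, so coverage may include PCR copies.

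Each CpG was fitted with a quasi-binomial logistic model with age as its term. The Pearson dispersion was moderated by limma 3.58.1, was not set below 1, and the F test was adjusted by Benjamini-Hochberg over all tested CpGs. CpGs with a dispersion of 0 were left out when the prior was estimated. Means of gene windows (3 or more tested CpGs) went into limma with a trend, fitted over all genes, with a two-sided exact permutation test beside it. GENCODE vM21 gave genes and start sites, and those within 500 bases were merged. The analysis was tested on simulated data. Python 3.11.15, numpy 2.4.6, scipy 1.17.1, pandas 2.3.3, pysam 0.24.0 and R 4.3.3 were used.

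Named CpGs were, for each gene, the one with the largest difference among those with at least 10 reads in every mouse. The Dnmt3a stretch, the Tdg CpG with the smallest p, other single CpGs, the clusters and the density classes were chosen after values were seen, and the 10 genes and all lists were chosen with earlier results of these data known. Each group is 4 mice. Alternatives were other coverage minima, limma on M values with 1 pseudocount read, each CpG's own dispersion, a minimum difference of 10 points, strands tested apart, the gene body alone, pooled reads, a logit scale, another start window, a replicate block, and each mouse left out.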

Additional observations from a re-analysis of the deposited data

Results flagged for a closer look

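Among 104 groups of 4 mice, 5 had a mouse far from the other 3 by Dixon's test, where chance gives about 1 in 20. Mid-aged mouse 1 was low in the whole-gene mean of Dnmt1 (71.8%, others 72.4 to 72.5%) and around the intron 1 start site of Tet1 (1.5%, others 2.18 to 2.24%). Young mouse 1 was low in the start window of Dnmt3b (0.384%, others 0.940 to 1.04%). At chr10:82630049 in Tdg, young mouse 1 had 15.4% and mid-aged mouse 4 had 0.649%, with 0% in the other 3 mice of each group. Of these 5 values, 4 came from young mouse 1 and mid-aged mouse 1, the mice that most often had the fewest reads over the members, and the part of depth in them was not tested.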

How the results depend on the processing

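No member CpG was called under any alternative. With each CpG's own dispersion none of the 897285 CpGs was called and with limma on M values 40 were, so those 2 say nothing about the members. In the other alternatives the share called over all CpGs was also low, from 0.0682% without mid-aged mouse 2 to 0.406% with the replicate block. At the main share of 0.163%, 1.26 of 774 CpGs would be called, so 0 calls are not read as a result about the members. The count of member CpGs with an unadjusted p under 0.05 (65) was 44 of 557 with at least 10 reads, 78 of 918 with at least 3, 44 with each CpG's own dispersion, 72 of 844 with the strands apart, 61 of 730 without the upstream bases, 51 to 67 without 1 mouse, and 145 with limma on M values. The M value of a CpG with 0 methylated reads depends on its depth by construction. Depth also limits single CpGs, since 0 of 5 reads leave a Wilson upper limit of 43.4%, and RRBS reached 9.11% of the CpGs of these genes. With the replicate number as a block it was 48, with a smallest adjusted p of 0.0947, and the block changed no call of a member CpG, gene window or start window. Same-numbered mice did not deviate together (correlations of -0.0016 to 0.0058), so the mice were not treated as paired, and 3 of the 4 mid-aged mice correlated best with their own number. The dispersion counted as 0 in the block fit (under 0.01) was set after the data were seen.

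Pooled reads turned the sign of the whole-gene differences of Dnmt1 (-9.06), Dnmt3a (-23.5), Dnmt3b (-12.0), Dnmt3l (2.39), Tet1 (-19.8), Tet2 (-3.56), Tdg (-21.7) and Uhrf1 (-1.82), and of the body differences of Dnmt3b (-7.89), Tet2 (-3.91), Tdg (-0.228), Uhrf1 (-1.98) and Uhrf2 (-28.1). With at least 10 reads the sign turned in whole Dnmt3a (-0.508), Tet3 (0.335) and Tdg (-0.124), in the starts of Tdg (0.113) and Uhrf1 (0.428), and in the bodies of Tdg (-0.456) and Uhrf2 (-0.312), and with a start window of 500 bases on either side in Uhrf1 (0.428). None of these passed an adjusted p of 0.05, and the cause was not tested. The logit scale turned no sign.

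Leaving out 1 mouse turned the sign of the whole-gene differences of Dnmt3a (-0.146 to 0.755), Tet1 (-0.400 to 0.899), Tet3 (-0.296 to 0.194), Tdg (-0.0641 to 0.101) and Uhrf1 (-0.130 to 0.333). It did so for the starts of Tet2 (-0.0599 to 0.681), Tdg (-0.0976 to 0.103) and Uhrf1 (-1.12 to 0.679), the bodies of Tdg (-0.107 to 0.377) and Uhrf1 (-0.189 to 0.418), and chr10:82630049 of Tdg (-4.97 to 0.162). The calls in partner genes ran from 0 to 2. In settings added after the data were seen, they were 0 with limma on M values, 0 with each CpG's own dispersion and 7 with the replicate block, under which 0.406% of all CpGs were called. Without young mouse 2, another Cxxc5 CpG was called (-27.4, adjusted p = 0.0245 in the quasi-binomial model), and without young mouse 3 an Nsd1 CpG (-34.2, adjusted p = 0.0331).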
